A study of Rattus norvegicus with 8 samples.

Results

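Interleukin-1, tumour necrosis factor (TNF) and Toll-like receptor signalling was followed through 10 genes in neurons of the rat hippocampus. The genes were the ligands Il1a, Il1b, Il6 and Tnf, the antagonist Il1rn, the receptors Il1r1, Tlr2 and Tlr4, the co-receptor Cd14 and the kinase Ripk2. They were chosen by name, and every array probe carrying one of these names was kept, which gave 15 of 41012 probes. Male Sprague-Dawley rats had received a moderate fluid percussion injury, a model of traumatic brain injury in which a pulse of fluid strikes the brain through an opening in the skull. Single CA3 pyramidal neurons were taken from frozen sections by laser capture microdissection and classed by Fluoro-Jade, a dye that stains degenerating neurons. Amplified RNA of each pool was hybridised to its own Agilent rat array, in 1 colour. The design asks how dying neurons differ from surviving neighbours in the same injured hippocampus, with uninjured animals as the baseline.

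Dying neurons were Fluoro-Jade-positive and surviving neurons were Fluoro-Jade-negative cells lying beside them. Both were taken 24 h after injury, at about 600 neurons a pool, and each pool mixed cells of several rats. Sham neurons came from rats that underwent the procedure without injury and were also collected at 24 h, and naive neurons came from untreated rats. Each of the 4 groups had 2 arrays, a number that limits the precision of every value. Neither the ages of the rats nor the size of the sham and naive pools is given in the sources used here. P-values therefore measure the spread between these pools, not between single animals.

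Interleukin-1 alpha and beta are cytokines that bind the receptor Il1r1 and activate the transcription factor NF-kB through the adaptor Myd88. Toll-like receptors sense microbial products and molecules released by damaged cells and mostly use the same adaptor, whereas TNF reaches NF-kB through receptors of its own. In injured brain, microglia and infiltrating leukocytes are well-known sources of these cytokines, and neurons can respond to them.

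Levels are given as log2 scaled signal, the log2 of a probe's processed signal over the median of its array, so that 0 is the median probe. Before scaling, the array medians in intensity units were 27.2 and 22.7 for naive, 16.5 and 16.4 for sham, 52.2 and 48.2 for surviving, and 19.2 and 52.6 for dying neurons. Dying replicate 1 thus had a dimmer array than dying replicate 2. An alternative, normexp background correction, added an offset of 50 intensity units to every spot before scaling, which is above most of these medians. Such an offset by itself makes the log2 differences of dim probes smaller. A probe was called well above background on an array when most of its spots carried that mark from the scanner software. This held for 22445 and 22390 probes on the naive arrays, 20910 and 20191 on the sham arrays, 29345 and 27079 on the surviving arrays, and 24057 and 27995 on the dying arrays. The surviving and dying arrays shared 1 slide, scan and extraction protocol, and the naive and sham arrays shared another. Slide and injury therefore cannot be told apart in any comparison with sham, while dying against surviving and sham against naive each lie within 1 slide. The labels name a pair of amplification kits without saying which pool received which, whereas the study's methods name MessageAMP II only. The part of the kit in the results was not tested.

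The pools carried the markers of pyramidal neurons. Of 12 pyramidal genes, 9 had a probe, and all 9 were well above background on at least 1 array. Their summed scaled signal (linear, not log2) was 6547 and 9312 on the naive arrays, 12644 and 10737 on the sham arrays, 7620 and 7320 on the surviving arrays, and 4884 and 4523 on the dying arrays. The dying arrays were thus the lowest, and the brightest gene, Nrgn, was at 11.53 and 11.51 there against 12.92 to 13.07 in sham. In pools of captured cells, fewer cells of a type and less RNA per cell cannot be told apart.

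Genes known from other cells were also measured in these pools. Of 18 microglia and macrophage markers, 17 had a probe and 16 were well above background on at least 1 array, with Cd163, a macrophage scavenger receptor, below background on all 8. Their summed scaled signal was 180 and 368 on the naive arrays, 350 and 318 on the sham arrays, 395 and 415 on the surviving arrays and 2186 and 1268 on the dying arrays. Both dying arrays stood above all 6 others, with the complement gene C1qa, the brightest over the 8 arrays together, at 8.88 and 8.55. The 12 neutrophil and lymphocyte markers summed to 14.6 and 10.1, 10.2 and 10.4, 18.1 and 18.6, and 50.8 and 41.9 in the same order of groups. Their brightest gene was the T cell gene Cd3d, while the neutrophil collagenase Mmp8 was below background on all arrays. Cd3d, at 5.10 and 4.21 on the dying arrays, made up a large part of the sums there. Of the 12 markers, 1 was well above background on all 8 arrays, and 5 and 8 were on the dying arrays, so the sums also hold signal below background. Markers of endothelium and pericytes summed to 391 and 144 on the dying arrays against 73.0 to 122 on the others, naive replicate 1 being at 79.4, with the receptor Kdr the brightest over the 8 arrays together and Tek below background throughout.

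Astrocyte and interneuron markers did not follow the same order. Astrocyte markers, led by Slc1a3, summed to 989 on dying replicate 1 but 452 on dying replicate 2, within the range of 429 to 1209 over the other arrays. Interneuron markers summed to 732 on dying replicate 1 and 178 on dying replicate 2, against 171 to 479 elsewhere. Pvalb, the brightest of them over the 8 arrays together, was at 5.85 and 6.06 on the dying arrays, so the high sum came from other genes of the list. The 2 dying pools thus differed in these lists, as they did in the endothelium and pericyte sum.

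**Figure D1:**
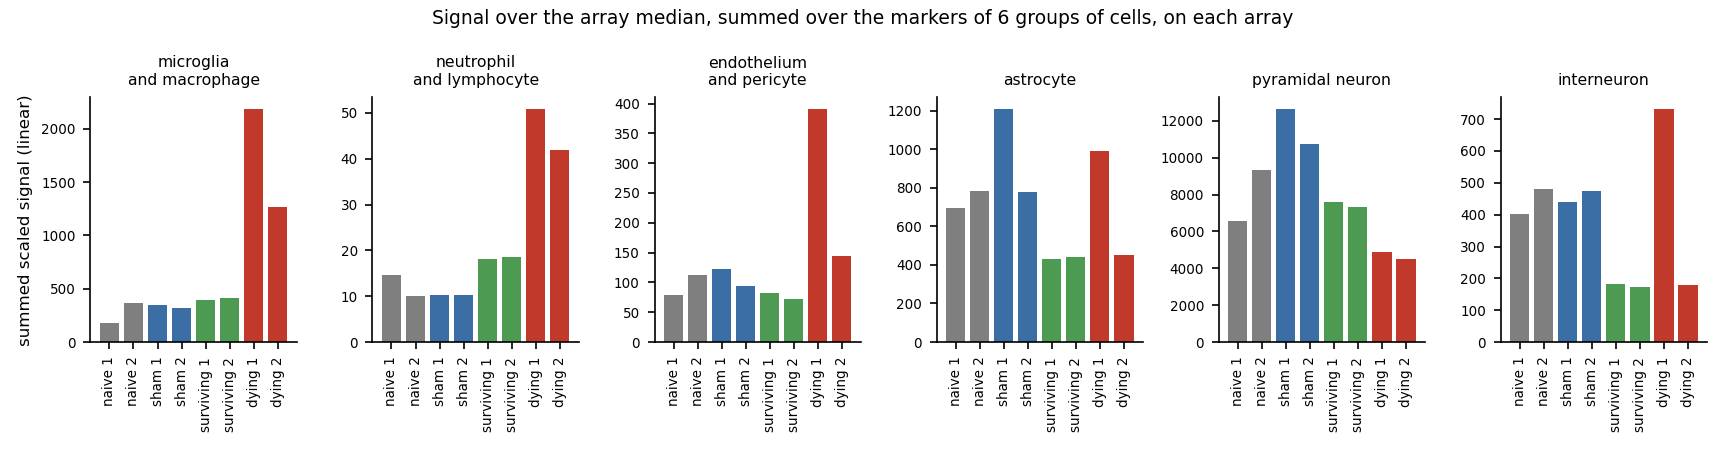
Signal over the array median (vertical axes, linear), summed over the markers of 6 groups of cells, with 1 bar for each of the 8 arrays in every panel. The microglia and macrophage sum was 2186 and 1268 on the dying arrays and at most 415 on the others.

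Promoter sequences are shown for 3 members with a probe that passed the test between dying and sham neurons, because these genes stood higher together and the motifs differ among them. RefSeq (build GRCr8) gave a promoter, taken as 300 bases around the start with most of them upstream, for 9 of the 10 genes, Ripk2 being absent. A script searched both strands for TATAAA and for the NF-kB consensus. TATAAA was held by 14.2% of all 33469 promoters of this length and by 4 of the 9 members, Il1a, Il1b, Il1rn and Tnf. The NF-kB consensus was held by 7.51% of all promoters and by 3 of the 9 members, Il1r1, Il6 and Tlr2. Capitals mark TATAAA in Il1b (chr3:137036532-137036831, minus strand) and in Il1rn (chr3:27520072-27520371, plus strand), where the match lies on the strand not printed and reads in reverse complement. In Tlr2 (chr2:171504508-171504807, minus strand) they mark 3 matches to the NF-kB consensus, of which the first 2 overlap each other. No member promoter held both motifs, and that of Cd14, the other gene that passed, held neither and is not printed. A match describes letters only.
Il1b: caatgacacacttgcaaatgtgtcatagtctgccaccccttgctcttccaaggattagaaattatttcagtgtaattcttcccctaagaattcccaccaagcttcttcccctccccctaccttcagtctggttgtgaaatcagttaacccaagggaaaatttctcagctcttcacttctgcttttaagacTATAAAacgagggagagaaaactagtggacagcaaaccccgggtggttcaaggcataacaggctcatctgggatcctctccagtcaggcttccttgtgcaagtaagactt
Il1rn: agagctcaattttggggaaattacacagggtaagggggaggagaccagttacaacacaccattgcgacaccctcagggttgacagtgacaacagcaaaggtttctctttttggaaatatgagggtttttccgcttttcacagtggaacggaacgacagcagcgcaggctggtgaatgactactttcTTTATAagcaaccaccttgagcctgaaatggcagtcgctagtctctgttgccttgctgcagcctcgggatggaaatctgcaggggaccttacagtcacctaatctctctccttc
Tlr2: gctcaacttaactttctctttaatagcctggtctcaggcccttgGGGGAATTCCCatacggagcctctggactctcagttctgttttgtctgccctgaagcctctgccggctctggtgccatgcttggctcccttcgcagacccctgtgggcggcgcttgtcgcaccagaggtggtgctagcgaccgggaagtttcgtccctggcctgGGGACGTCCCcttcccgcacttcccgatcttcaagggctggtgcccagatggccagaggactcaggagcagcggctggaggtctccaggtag

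Among the ligands, Il1b was measured in injured neurons only. This cytokine is made as a precursor and cleaved by caspase-1. Its 10-spot probe A_43_P14911 read −1.82 and −2.94 on the naive arrays, −1.15 and −2.21 on the sham arrays, 1.13 and 0.19 on the surviving arrays and 2.55 and 3.14 on the dying arrays. The groups were ordered with dying highest, surviving next and the uninjured arrays lowest, with no overlap among the dying, surviving and sham arrays while sham and naive cannot be ordered below background. The spots of this probe behaved alike: 0 of 10 were well above background on each uninjured array and 10 of 10 on each injured array. The other Il1b probe, A_44_P230320, with 1 spot, read −2.08 and −3.01, −2.31 and −2.33, −0.49 and −0.78, and 0.97 and 0.85 in the same order of groups. It placed dying above surviving neurons as well, and was likewise below background on the 4 uninjured arrays. Its surviving readings lie under the lowest signal well above background on the sham arrays (−0.30 and −0.15), so by this probe surviving and sham neurons cannot be ordered.

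The remaining ligands stayed near background. Il1a, the interleukin-1 that acts without cleavage by caspase-1, was well above background on 0 of 8 arrays, with values from −3.86 to −1.44. Il6, a cytokine that signals through Jak kinases and Stat3, was also not well above background on any array, at −2.97 to −1.60. Single spots of its 10-spot probe were well above background only on injured arrays: 4 and 1 of 10 in surviving and 3 and 3 of 10 in dying neurons. Tnf was well above background on 1 array, surviving replicate 1, with 6 of 10 spots. On the other arrays 4 and 1 (naive), 1 and 0 (sham), 1 (surviving replicate 2) and 0 and 1 (dying) of its 10 spots were marked. On sham replicate 1 a single Tnf spot lay at 1.40 while the median of the 10 spots was −2.37. No order of groups could be read for these 3 ligands, because their levels have only an upper bound on most arrays.

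**Figure D2:**
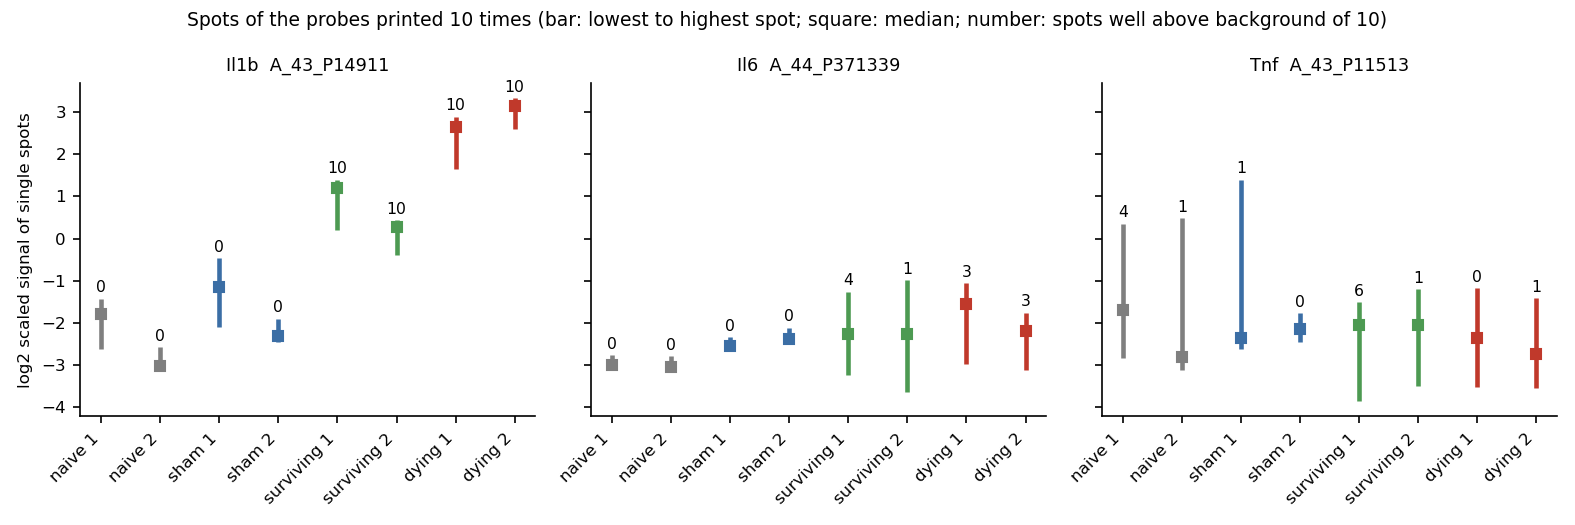
Log2 scaled signal of single spots (vertical axes) for the 3 probes printed 10 times, on each of the 8 arrays, with bars from the lowest to the highest spot, squares at the median and the number of spots well above background written beside them. All 10 Il1b spots were well above background on each of the 4 injured arrays, whereas Il6 reached at most 4 and Tnf at most 6 of 10 on any array.

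Il1rn, the antagonist that occupies the interleukin-1 receptor without signalling, was bright after injury. Its probe A_44_P462661 read −0.96 and −2.98 on the naive arrays, 0.48 and 0.02 on the sham arrays, 3.55 and 2.19 on the surviving arrays and 2.95 and 4.28 on the dying arrays. The injured arrays were all higher than the uninjured ones, and the dying and surviving arrays overlapped. The naive arrays were not well above background and lay below both sham arrays. A second probe of the gene, A_44_P112890, was below background on all 8 arrays (−4.35 to −2.11), so the probes of Il1rn disagreed.

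Of the receptors, Tlr2 was the one measured on every array. Tlr2 recognises bacterial lipoproteins together with Tlr1 or Tlr6. Its probe read 3.47 and 3.47 on the naive arrays, 2.67 and 3.11 on the sham arrays, 2.30 and 2.17 on the surviving arrays and 5.58 and 4.67 on the dying arrays. Dying arrays were highest and surviving arrays lowest, on either side of the naive and sham arrays, with no overlap between any groups. Only the high place of dying neurons held under every scaling: surviving against sham turned positive (0.02 to 0.31) under 5 of the 6 other scalings, and sham against naive (0.12) under normexp. Il1r1, the signalling receptor for interleukin-1, was below background with both of its probes on all 8 arrays, at −4.43 to −1.64. Tlr4, the receptor for lipopolysaccharide, was well above background on 2 arrays only, at −2.13 on surviving replicate 1 and 1.28 on dying replicate 1. Dying replicate 2 did not measure it, so the level of Tlr4 in dying neurons rests on 1 pool.

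Cd14, which hands lipopolysaccharide to Tlr4 and also serves Tlr2, was read by probe A_44_P469584 at 0.85 and 0.97 on the naive arrays, 3.13 and 1.60 on the sham arrays, 4.81 and 3.55 on the surviving arrays and 4.59 and 5.61 on the dying arrays. Injured arrays were above sham arrays and sham arrays above naive arrays, while dying and surviving overlapped. The other Cd14 probe, A_44_P519251, was well above background on surviving replicate 1 (−0.06) and dying replicate 2 (−0.50) alone.

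Ripk2, the kinase that carries signals from the intracellular sensors Nod1 and Nod2, gave discordant probes. Probe A_43_P18344 read −0.01 and −1.48 on the naive arrays, 0.90 and 0.68 on the sham arrays, −0.30 and −3.0 on the surviving arrays and 0.97 and 1.84 on the dying arrays. Dying arrays were above sham arrays, which were above surviving arrays, and naive replicate 2 and surviving replicate 2 were not well above background. Probe A_44_P811606 read −0.39 and −0.23, 0.21 and −0.07, −3.61 and −3.27, and −1.59 and −1.84 in the same order of groups. By this probe all 4 injured arrays were below background and below every uninjured array, so the probes differed in where dying neurons lay relative to sham.

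**Figure D3:**
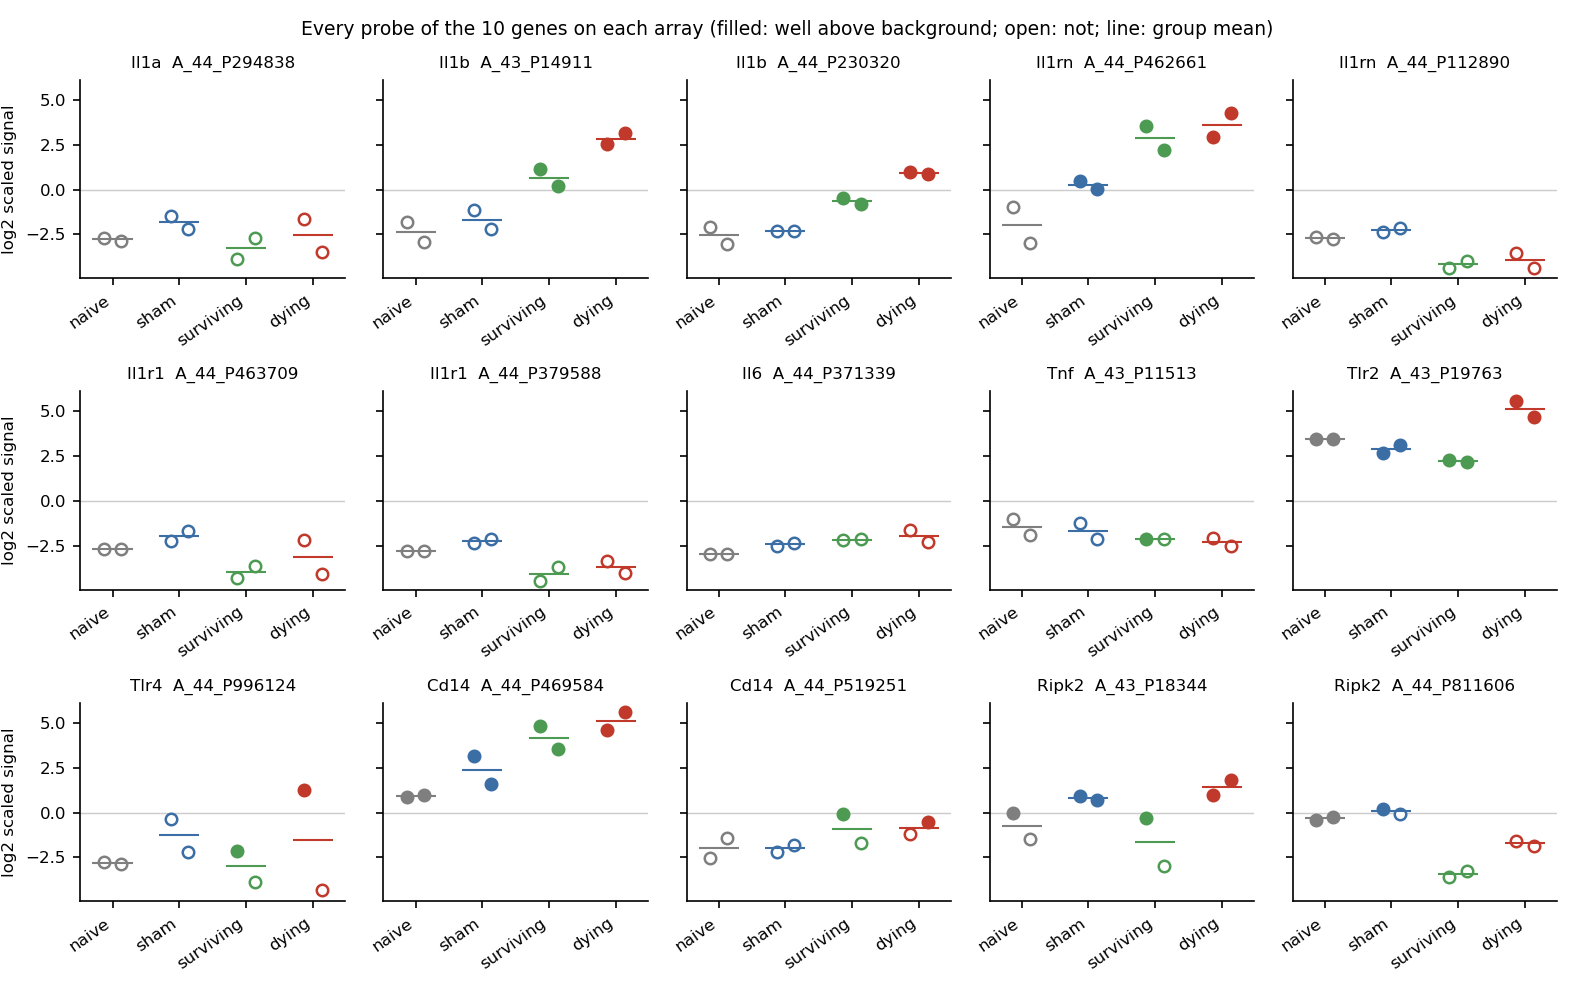
Log2 scaled signal (vertical axes; 0 is the array median) of all 15 probes in naive, sham, surviving and dying neurons, 2 arrays each, with filled points well above background, open points not, and lines at group means. Both Il1b probes rest on open points in naive and sham neurons, and Tlr2 is filled throughout, at 4.67 and 5.58 in dying neurons.

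The comparison of dying with surviving neurons sets neighbouring cells, classed by Fluoro-Jade at 24 h after injury, against each other. Levels before injury were not measured in these cells. Both Il1b probes, Tlr2 and Ripk2 A_43_P18344 were higher on both dying arrays than on both surviving arrays, but no member passed the test. By limma, 0 of 27391 probes tested reached an adjusted p under 0.05, and 5896 had an unadjusted p under 0.05. Of the members, 6 probes of 5 genes were bright enough to be tested and 0 passed, against a background of 0% of all probes. At an unadjusted p under 0.05, 4 of the 6 were higher in dying neurons, against 10.6% of all probes tested. Both dying arrays lay above both surviving arrays for the same number, 4 of 6, against 21.7% of all probes, and below for 0 of 6 against 30%. Of these 4 probes 2 belong to Il1b, and a probe had to be well above background in 1 of the groups to be counted, so the shares are a description of these probes only. The median difference of all probes tested was −0.14, and ranged from −0.35 to 0.20 over 7 ways of scaling the arrays.

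Tlr2 stood 2.89 ± 0.48 higher in dying neurons on the log2 scale (SE; limma adjusted p = 0.0912), which is 7.42-fold and 3.04 above the median of all probes. Leaving out dying replicate 2 took Tlr2 past the threshold, at 3.34 with an adjusted p of 0.0114, and leaving out dying replicate 1 gave 2.44 with 0.119. The whole comparison moved with that array, since 5994 probes passed without dying replicate 2. Tlr4 could be tested only with an array left out: without dying replicate 2 it differed by 4.27 (adjusted p = 0.0279), which rests on dying replicate 1 alone, and without surviving replicate 2 by 0.61 (adjusted p = 0.920). Il1b differed by 2.18 ± 0.63 with its 10-spot probe (adjusted p = 0.129) and by 1.54 ± 0.47 with the other (adjusted p = 0.140). Under normexp these sizes shrank, to 1.11 for Tlr2, 0.86 and 0.49 for the Il1b probes and 0.96 for Ripk2 A_43_P18344. Ripk2 A_43_P18344 stood 3.06 ± 0.90 higher (adjusted p = 0.134), a size that depends on a reading below background on surviving replicate 2. It was 1.71 without that array and 4.41 without surviving replicate 1. The differences of Il1rn (0.74 ± 0.81, adjusted p = 0.631) and Cd14 (0.92 ± 0.69, adjusted p = 0.474) were small beside their errors. Both turned negative under normexp, to −0.18 and −0.34. The normexp offset weighs more on the dim array of dying replicate 1 than on the surviving arrays, and its part in these signs was not tested.

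Beside these differences, 13 of 15 tested microglia and macrophage markers were higher in dying than in surviving neurons, against 44.4% of all probes tested, with a median of 1.45, 7 of them at an unadjusted p under 0.05. Of the neutrophil and lymphocyte markers tested, 4 of 6 were higher, and of the pyramidal markers 8 of 9 were lower, with medians of 1.70 and −1.23. Endothelium and pericyte markers were higher for 6 of 7, with a median of 1.05, and 2 of the 7 reached an unadjusted p under 0.05. The part of these other transcripts in the member differences was not tested.

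Dying against sham neurons gave the clearest differences for these genes. Il1b, Il1rn, Tlr2 and Cd14 rose in dying neurons, and Ripk2 did not pass the test. By limma, 11289 of 25623 probes tested passed, or 44.1%, and 5 of the 6 tested member probes did. All 5 were higher in dying neurons, against 15.1% of all probes tested. Both dying arrays lay above both sham arrays for 6 of 6 tested member probes, which belong to 5 genes, against 30.8%. At an unadjusted p under 0.05, 5 of 6 were higher and 0 lower, against 19.8% and 34.4% of all probes. Of the 5 calls, 2 were probes of Il1b that no sham array measured and that entered the test through the dying arrays, so the share beside the background describes these probes and no more.

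Il1b rose by 4.52 ± 0.62 on the log2 scale with the 10-spot probe (adjusted p = 0.00228). Since no sham array measured it, the fold is a lower bound, at least 8.39-fold, taken against the lowest signal that was well above background on each sham array or the probe's own signal, whichever was higher. The other Il1b probe rose by 3.23 ± 0.47 (adjusted p = 0.00265), or at least 2.19-fold. Il1rn rose by 3.36 ± 0.81 (adjusted p = 0.0131), Cd14 by 2.74 ± 0.68 (adjusted p = 0.0152) and Tlr2 by 2.23 ± 0.48 (adjusted p = 0.00869). Ripk2 A_43_P18344 differed by 0.62 ± 0.89 (adjusted p = 0.585), whereas A_44_P811606 was measured on 1 of 2 sham arrays and on neither dying array and was not tested. Without sham replicate 2 that probe differed by −1.93, which rests on sham replicate 1 alone and on dying readings below background, so this is not an exact size.

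Relative to the median difference of all probes tested, −0.46, Il1rn stood 3.83 higher, Cd14 3.20 and Tlr2 2.69. That median depended on the scaling and was 0.26 with the 75th percentile, 0.55 with probes well above background on all arrays, −0.30 with RefSeq probes, 0.21 with quantile normalization, −0.28 after normexp background correction and 0.34 in the authors' series values. Of the calls, 3863 of 11289 were higher in dying neurons, which became 7050 of 11813, 8359 of 12186, 5261 of 9347 and 7359 of 11686 with the 75th percentile, the probes well above background, quantile normalization and the series values. The 5 member probes kept a positive difference under each of these scalings, but under normexp none passed (adjusted p from 0.519 to 0.535) and 0 of 25623 probes did, with 2347 at an unadjusted p under 0.05 in limma. The Il1b differences shrank to 1.53 and 0.58 under normexp, less than the lower bounds given above, which hold only without that correction. Normexp here included the offset of 50 intensity units, and the part of the offset in this shrinkage was not tested. Cd14 lost its call without dying replicate 2 (adjusted p = 0.0524) or sham replicate 2 (0.106), Tlr2 without sham replicate 1 (0.0809), and Il1rn without sham replicate 1 (0.0649) or 2 (0.0725). The differences stayed near their size in these fits, at 2.23 and 1.97 for Cd14, 2.01 for Tlr2, and 3.6 and 3.13 for Il1rn. Both Il1b probes passed whichever array was left out. The count of calls itself fell to 3048 without sham replicate 1 and 5167 without sham replicate 2.

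Of the microglia and macrophage markers, 8 of 13 tested rose in dying relative to sham neurons and 0 fell, with a median difference of 2.02, against 15.1% of all probes called higher. Of these 13 markers, 1 was measured on no sham array. The 5 neutrophil and lymphocyte markers tested, of 12, rose as well, but 4 of them were measured on no sham array and entered the test through the dying arrays. Their median was 2.80, or 1.93 with those 4 at their bound. Endothelium and pericyte markers rose for 2 of 7 tested and fell for 0, with a median of 0.80 and 2 of the 7 measured on no sham array. Calls lower in dying neurons, made for 29% of all probes, were found for 2 of 9 pyramidal, 4 of 8 oligodendrocyte, 2 of 6 astrocyte and 2 of 7 interneuron markers. The medians of these lists were −1.90, −1.55, −0.87 and −0.39, with 0 rises. Their part in the rise of Il1b, Il1rn, Tlr2 and Cd14 was not tested.

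**Figure D4:**
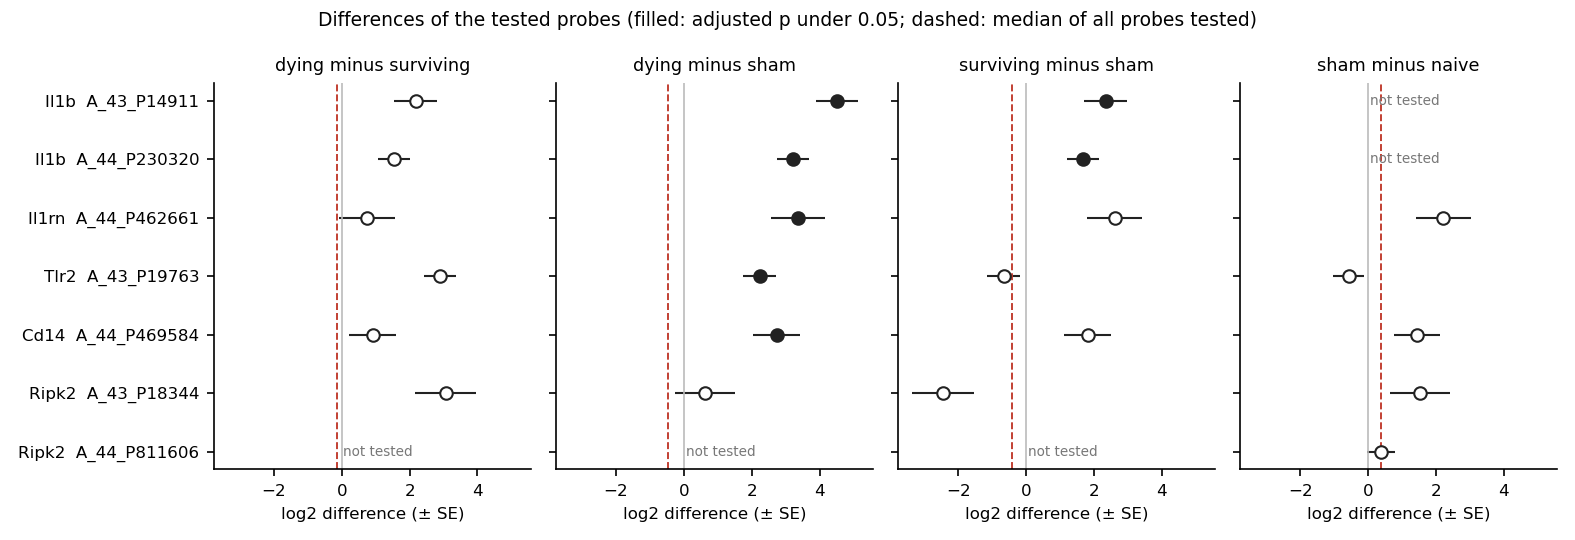
Log2 differences with SE (horizontal axes) of the tested member probes in each of the 4 comparisons, with filled points at a limma adjusted p under 0.05 and a dashed line at the median of all probes tested. Filled points are the 5 probes of Il1b, Il1rn, Tlr2 and Cd14 in dying against sham and the 2 Il1b probes in surviving against sham; the small negative Tlr2 difference of surviving against sham changed sign with 5 of the other scalings.

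In surviving neurons Il1b was the one member that passed the test against sham. By limma 5074 of 26905 probes passed, or 18.9%, and 2 of the 6 tested member probes did, both of Il1b and both higher, against 6.82% higher among all probes. Both surviving arrays lay above both sham arrays for 4 of 6 tested member probes against 28%, and below for 2 of 6 against 48.8%. At an unadjusted p under 0.05, 4 of 6 were higher, against 13.7%, and 1 was lower, against 23.2%. No sham array measured either Il1b probe, so both entered the test through the surviving arrays. With 2 probes of a single gene, the count of calls says little about the members as a group.

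Il1b rose by 2.35 ± 0.62 with the 10-spot probe (adjusted p = 0.0388), or at least 1.85-fold. The other probe passed at 1.69 ± 0.47 (adjusted p = 0.0440), but that size rests on sham readings below background, no bound above 1-fold could be given, and the probe shows no rise by itself. Under normexp the 10-spot difference was 0.67, less than its bound, and the other 0.090. Neither call held with any 1 array left out, although the differences stayed at 1.81 to 2.88 and 1.54 to 1.83: without surviving replicate 1 or 2, or sham replicate 1 or 2, the adjusted p was 0.207, 0.140, 0.125 and 0.201 for the 10-spot probe and 0.210, 0.203, 0.218 and 0.180 for the other. The total also dropped in these fits, to 415, 361, 253 and 513 probes. The single-spot Il1b probe also lost its call with the replicate number as a block (adjusted p = 0.0688), RefSeq probes (0.0769), no filter (0.0543), 0.1 added in place of the floor (0.0584) and normexp (0.994). The 10-spot probe lost it with quantile normalization (0.0782), no filter (0.0502) and normexp (0.911). Il1rn differed by 2.62 ± 0.81 (adjusted p = 0.0586) and Cd14 by 1.82 ± 0.69 (adjusted p = 0.0997). With 1 array left out the difference ranged from 1.94 to 3.30 for Il1rn and from 1.05 to 2.58 for Cd14. Both passed with several settings, none of which left out an array of this comparison. Il1rn passed with the 75th percentile (0.0462), probes well above background (0.0258), the series values (0.0282), 0.1 added in place of the floor (0.0386) and only the 2 groups in the fit (0.0130). Cd14 passed with the 75th percentile (0.0386), probes well above background (0.0272), quantile normalization (0.0485) and the series values (0.0398). Ripk2 A_43_P18344 differed by −2.44 ± 0.90 (adjusted p = 0.0924), with surviving replicate 2 not well above background. The difference was −1.09 without that array and −3.79 without surviving replicate 1. Probe A_44_P811606 was again not tested. Without sham replicate 2 that probe differed by −3.66, which rests on sham replicate 1 alone. Both surviving readings of the probe were below background, so this is not an exact size. Tlr2 differed by −0.66 ± 0.48 (adjusted p = 0.342), and the sign flipped to between 0.02 and 0.31 under 5 of the 6 other scalings.

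The median difference of all probes tested was −0.43, and 0.36, 0.55, −0.62, 0.18, 0.09 and 0.45 with the 75th percentile, probes well above background, RefSeq probes, quantile normalization, normexp and the series values. Calls were higher in surviving neurons for 1834 of 5074 probes. This split became 4134 of 5630, 5120 of 6397, 1160 of 4496, 2242 of 3779 and 4407 of 5850 with these scalings other than normexp, under which 0 probes passed in limma and 2494 had an unadjusted p under 0.05. Among the microglia and macrophage markers 1 of 15 rose and 1 fell, with a median of 0.60 and 2 of the 15 measured on no sham array. Of the neutrophil and lymphocyte markers 2 of 5 rose, with 4 of these 5 measured on no sham array. Pyramidal markers stayed near 0 in the median (−0.06), with 1 of 9 fallen, and 1 of 7 endothelium and pericyte markers rose, with a median of −0.29 and 2 of the 7 measured on no sham array. Oligodendrocyte markers fell for 3 of 8, astrocyte markers for 1 of 6 and interneuron markers for 1 of 7, with medians of −1.51, −0.96 and −1.14, against 12% lower calls among all probes. The part of these transcripts was not tested. Dying and surviving neurons were set against the same sham arrays, so that the values of these comparisons are not independent of each other.

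**Figure D5:**
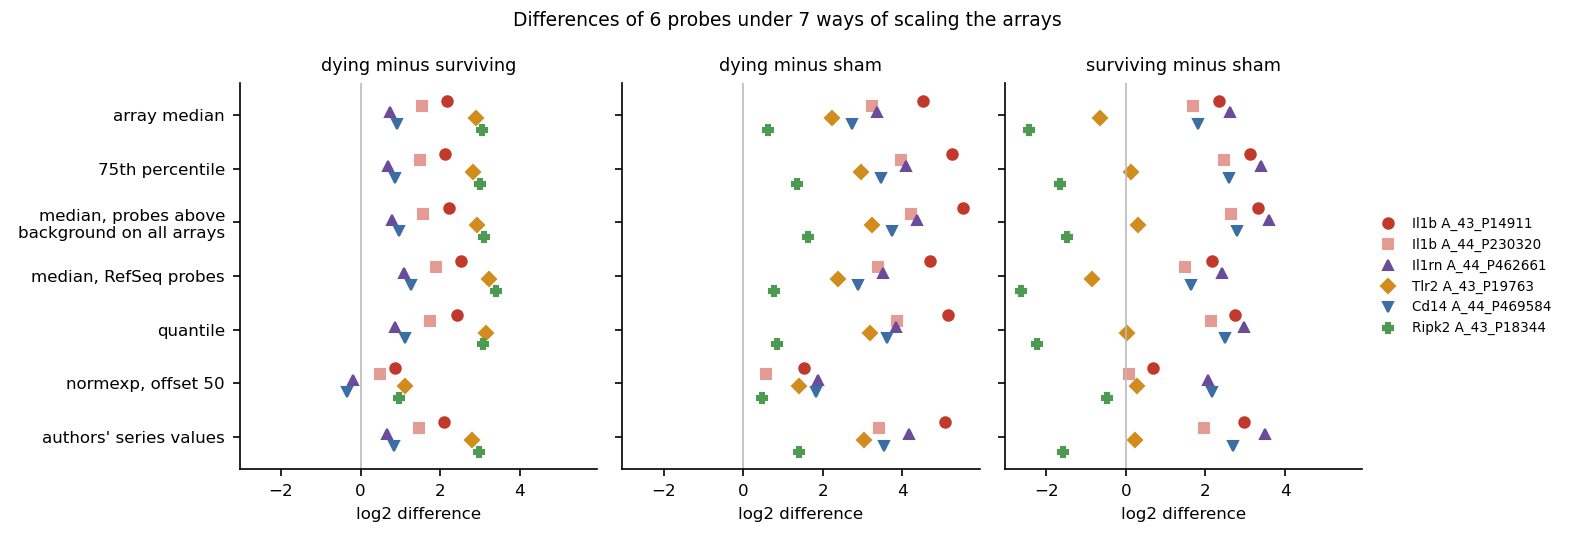
Log2 differences (horizontal axes) of 6 member probes in 3 comparisons under 7 ways of scaling the arrays (vertical axis), with 1 symbol per probe. In dying against sham all 6 stayed positive, and in surviving against sham Tlr2 was −0.66 with the array median but 0.02 to 0.31 with 5 other scalings.

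Sham against naive neurons asks what the procedure without injury did. In limma 0 of 20676 probes passed and 997 had an unadjusted p under 0.05, so no member changed by the test. Of the members, 5 probes of 4 genes were tested and 0 passed, against 0% of all probes. Both sham arrays lay above both naive arrays for 4 of 5 against 38% of all probes, and below for 1 of 5 against 4.95%. At an unadjusted p under 0.05, 1 of 5 was higher, against 3.9%, and 0 were lower, against 0.924%. The median of all probes was itself 0.37, falling between −0.05 and 0.59 over the scalings. Il1rn was 2.22 ± 0.80 higher in sham neurons (adjusted p = 0.882), or at least 2.05-fold, since no naive array measured it. The Il1rn difference was 1.21 without naive replicate 2 and 0.24 under normexp, where the bound does not hold. Cd14 was 1.45 ± 0.68 higher and Ripk2 A_43_P18344 1.54 ± 0.89 higher, while Tlr2 differed by −0.57 ± 0.46, each with an adjusted p of 0.882, and the sign for Tlr2 turned to 0.12 after normexp. The Cd14 difference was 0.69 without sham replicate 1 and 2.22 without sham replicate 2. That of Ripk2 A_43_P18344 was 0.80 without naive replicate 2, which was not well above background, and 2.27 without naive replicate 1.

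The wider pathways were described with 105 further genes in 6 lists, of which 89 had a probe. Between dying and surviving neurons 56 were tested with a median difference of 0.00, against −0.14 for all probes, and 0 passed in limma, with 4 higher and 3 lower at an unadjusted p under 0.05. Both dying arrays lay above both surviving arrays for 12 of the 56 and below for 13, close to or under the 21.7% and 30% of all probes. The lists as a whole thus showed no common direction in this comparison. Against sham, 8 of 50 tested genes rose and 3 fell in dying neurons, near 15.1% of all probes for the rises and under 29% for the falls. The median was 0.45, or 0.14 with unmeasured genes at their bound, against −0.46 for all probes. In surviving neurons 2 of 54 rose and 0 fell against 6.82% and 12% of all probes, with a median of −0.01 against −0.43. Between sham and naive neurons 0 of 45 passed in limma, with 2 at an unadjusted p under 0.05 and a median of 0.52 against 0.37.

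In the interleukin-1 list, 3 of 11 genes rose and 1 fell in dying relative to sham neurons, against 15.1% and 29% of all probes. Of the rises, Il1r2 and Il18r1 were measured on no sham array and entered the test through the dying arrays. The decoy receptor Il1r2 differed by 3.08 (at least 4.62-fold, adjusted p = 0.00816), the inflammasome adaptor Pycard by 2.53 (adjusted p = 0.00521) and the receptor Il18r1 by 2.18 (at least 1.06-fold, adjusted p = 0.0195). Map3k7, the kinase that links the receptors to NF-kB, fell by 3.05 (adjusted p = 0.00302). Between dying and surviving neurons the median of 12 genes was −0.06, and Pycard (2.29, adjusted p = 0.109), Il1r2 (2.94, 0.113), Sigirr (0.98, 0.301), Map3k7 (−1.74, 0.125), Tollip (−0.30, 0.722) and Irak1 (−0.19, 0.873) did not pass. Pycard read 2.0 and 1.80 on the surviving arrays and 4.56 and 3.83 on the dying arrays, which did not overlap.

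Against 15.1% and 29% of all probes called higher and lower, 2 of 9 genes of the TNF list rose in dying relative to sham neurons and 0 fell. Both were receptors of TNF, Tnfrsf1b by 3.06 (adjusted p = 0.0185) and Tnfrsf1a by 1.83 (adjusted p = 0.0394). The ligand itself stayed near background, as given above. Between dying and surviving neurons the list had a median of 0.60 over 10 genes, with Tnfrsf1b at 2.51 (adjusted p = 0.151), the ligand Ltb at 1.75 (0.229) and the NF-kB regulator Tnip2 at 1.10 (0.331), none of which passed. Tnfrsf1b read 1.49 and 0.45 on the surviving arrays and 3.76 and 3.19 on the dying arrays.

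In the Toll-like receptor and NOD list, 1 of 7 genes rose in dying relative to sham neurons, against 15.1% of all probes. This gene was Tlr9, the sensor of unmethylated DNA, which rose by 2.29 (adjusted p = 0.0121). Between dying and surviving neurons the median of the list over 8 genes was 0.54, and the interferon regulators Irf3 (1.13, adjusted p = 0.238) and Irf7 (1.26, 0.258) and the sensor Nod2 (−0.60, 0.441) did not pass. The interleukin-6 list had 1 fall and 0 rises among 7 genes in dying against sham neurons, against 29% and 15.1% of all probes. The kinase Jak2 fell by 3.14 (adjusted p = 0.0252). In dying against surviving neurons the median of this list was −0.26, with Cntf at 0.82 (adjusted p = 0.402), Jak2 at −1.93 (0.268), Lif at −0.37 (0.702) and Stat3 at −0.30 (0.734), none of which passed. Jak2 read −0.45 and 2.55 on the dying arrays, so its mean rests largely on dying replicate 1.

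NF-kB factors and regulators gave 0 calls among 7 genes in dying against sham neurons in limma, against 44.1% of all probes, with 1 at an unadjusted p under 0.05. Their median was −0.29 over 9 genes in dying against surviving neurons. The subunit Rel was measured on both surviving arrays and neither dying array, at least 3.21-fold lower in dying neurons (adjusted p = 0.112). Nfkbib differed by −0.81 (adjusted p = 0.419) and the mean of the kinase Map3k14 was at least 1.88-fold lower in dying neurons (adjusted p = 0.476). The Map3k14 bound rests largely on surviving replicate 2, at 0.24 against −1.15 on surviving replicate 1. Rel, Nfkbib and Map3k14 did not pass the test. Among known targets of NF-kB, 2 of 9 rose and 1 fell in dying against sham neurons, against 15.1% and 29% of all probes. The iron-binding protein Lcn2 rose by 5.28 (adjusted p = 0.00152) and the transcription factor Cebpd by 2.31 (adjusted p = 0.00567), whereas Ptgs2, the inducible cyclooxygenase, fell by 3.43 (adjusted p = 0.0307). Ptgs2 read −1.92, not well above background, and 1.84 on the dying arrays against 3.41 and 3.37 in sham, so the size of its fall rests largely on dying replicate 1. The same genes Lcn2 (4.54, adjusted p = 0.00619) and Cebpd (1.48, adjusted p = 0.0499) were the 2 calls of all lists in surviving neurons. Against surviving neurons, Cebpd (0.83, adjusted p = 0.311) and Ptgs2 (−2.72, 0.198) did not pass in dying neurons, and the list's median was 0.49 over 10 genes. Selp did not pass either (limma adjusted p = 0.509). Its surviving readings, −1.63 and −1.51, lie under the lowest signal well above background on dying replicate 1 (−1.35). Dying and surviving neurons thus cannot be ordered for Selp.

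Likeness of pattern was described by Pearson's r of log2 scaled signal over the 8 arrays with 10292 named probes. These points share slides and groups, and r is given without a test. Il1b was most like Gadd45g (0.983), Gcgr (0.982) and Psmb8 (0.981), and Il1rn most like Fgd2 (0.978), Tnfrsf12a (0.975) and Hbegf (0.972). For Cd14 the nearest were Slc11a1 (0.996), Timp1 (0.976) and Clic1 (0.972). Tlr2, with its low surviving arrays, had weaker neighbours in Tenc1 (0.947), Igf1 (0.945) and Npr1 (0.934), as did Ripk2 in Hbs1l (0.927) and Col5a3 (0.910).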

How the data were processed

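RNA of 8 pools of captured CA3 neurons had been hybridised to 1-colour Agilent rat arrays. Per the file headers, the deposited intensity of each spot is the processed signal of Agilent Feature Extraction 9.1.3.1, with local background and a spatial trend removed and no scaling between arrays. Over the 4142 bright probes compared, the signal in the authors' series table equals this processed signal divided by 1 constant per array (median ratios from 91.4 to 205). Dim probes were not compared, and the lowest value of an array was 0.024 to 0.055 in that table. Its column medians were 0.22, 0.15, 0.13, 0.15, 0.26, 0.26, 0.21 and 0.28 for naive, sham, surviving and dying arrays in order of replicate. What set the constant is not known, and the table served as an alternative. Non-uniform spots (6 to 734 of 43379 per array) were left out and 0 were saturated. Spots of a probe were averaged, divided by the array median as the methods state, floored at 0.01 and taken to log2, with no centring of each gene over the arrays.

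A probe entered the test where 1 of the groups compared had it well above background on both arrays. The test was limma 3.58.1 in R 4.3.3, in 1 fit of 4 group means over 8 arrays with 4 residual degrees of freedom, with Benjamini-Hochberg adjustment over all probes tested and a threshold of 0.05. The fit was checked on simulated data. The methods name no test for arrays. An exact permutation test of 2 against 2 arrays cannot give a p below 0.333. All members and every probe of them were named; of each pathway list, up to 3 genes in each direction of dying against surviving neurons were named by smallest p among those whose arrays did not overlap, and genes of short counts besides. A gene of a list was read from its brightest probe. Members and lists were chosen with earlier results of these data known. Alternatives covered the scaling, background correction (normexp with an offset of 50), filter, floor, spots, arrays in the fit, the replicate block and each array left out.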

Additional observations from a re-analysis of the deposited data

Results flagged for a closer look

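For 2 probes the dying and surviving arrays lay on opposite sides of both sham arrays. Tlr2 stood 2.89 higher in dying than in surviving neurons on the log2 scale, with both dying arrays above and both surviving arrays below sham. The difference between dying and surviving neurons was itself tested and did not pass (limma adjusted p = 0.0912), and the position of surviving below sham was turned by 5 of the 6 other scalings. Ripk2 probe A_43_P18344 stood 3.06 higher in dying than in surviving neurons in the same way (adjusted p = 0.134), with surviving replicate 2 not well above background. Its difference was 1.71 without that array and 4.41 without surviving replicate 1. Against sham, the dying arrays stood only 0.62 higher by this probe (adjusted p = 0.585), and by the other Ripk2 probe, A_44_P811606, they were below background at −1.59 and −1.84, with sham at 0.21 and −0.07. What lies behind either pattern was not tested.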

How the results depend on the processing

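Of the member differences between dying and surviving neurons, 81 of 83 values under other settings kept their direction and side of the threshold, as did 71 of 76 for dying against sham, 53 of 75 for surviving against sham and 60 of 62 for sham against naive. With 1 array left out, 23 of 24, 19 of 24, 16 of 24 and 20 of 20 did. The filters, the groups in the fit and the replicate block leave a difference unchanged, so those settings could move only its side of the threshold. In dying against surviving and sham against naive no member had passed, so keeping its side there means not passing. Sizes could still shrink, as for Tlr2 in dying against surviving neurons from 2.89 to 1.11 under normexp. Reversed were Il1rn (−0.18) and Cd14 (−0.34) in dying against surviving neurons under normexp. Tlr2 reversed in surviving against sham, to 0.12 with the 75th percentile, 0.31 with probes well above background on all arrays, 0.02 (0.0232) with quantile normalization, 0.28 with normexp and 0.22 with the series values, and in sham against naive to 0.12 (0.119) with normexp. Ripk2 A_44_P811606 reversed to −0.043 in sham against naive with probes well above background. The cause was not tested.

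Counts of probes past the threshold moved as follows. Dying against surviving gave 2 with the series values, where 6888 had an unadjusted p under 0.05, and 0 to 5994 with 1 array left out. Dying against sham gave 0 with normexp, 7156 of 16180 when every array compared had to be above background, which tests fewer probes, and 3048 to 13426 with 1 array left out. Surviving against sham gave 0 with normexp, 3109 of 18171 with the stricter filter, 12161 with only the 2 groups in the fit, and 253 to 513 with 1 array left out. Sham against naive gave 1 with quantile normalization, 118 with only the 2 groups in the fit, and 0 to 0 with 1 array left out, where limma left 0 and the lone array is taken to vary like the other groups. The cause was not tested beyond the number of probes or arrays.

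The replicate numbers of the labels were not shown to pair the arrays: deviations of same-numbered arrays correlated at −0.13, −0.0058, 0.044 and −0.012 over probes in the 4 comparisons. With the replicate number as a block, 0, 10397, 3488 and 0 probes passed in limma (5495 and 839 at an unadjusted p under 0.05 in the first and last). The block ended 1 member call, that of the single-spot Il1b probe in surviving against sham. A crossed pairing of dying and surviving arrays, added after seeing the data, gave 0 calls and 5971 at an unadjusted p under 0.05. The median over the spots of a probe, also added after seeing the data, gave 0, 11293, 5074 and 0 calls (5896 and 998 unadjusted in the first and last).

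Signal over background limits Il1a, Il6, Il1r1 and most readings of Tnf and Tlr4 to upper bounds. The lowest signal well above background was −0.30 and −0.15 on the sham arrays but −2.30 to −1.35 on the injured arrays, and a dim transcript in between was measured only after injury.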

Other observations

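Probe A_44_P151037 carries no gene symbol in the files. The study's text lists its expressed sequence under interleukin-1 beta, a name that was not checked here and that the rule for the members leaves out. The probe was chosen after its values were seen. It was not well above background on the naive, sham and surviving arrays and read 0.38 and −0.15 on the dying arrays. The probe entered both comparisons through the dying arrays alone, so its values are a description and no test is drawn from them. Its signal was at least 4.23-fold higher in dying than in surviving neurons and at least 1.27-fold higher than in sham neurons.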
